A study of Saccharomyces cerevisiae with 72 samples.

Results

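The osmosensing and high osmolarity glycerol (HOG) pathway was followed through 10 genes of *S. cerevisiae* while cells gained DNA or stayed arrested. The genes were found by their systematic names among the 6843 features of the count table, and all 10 were present. They comprise the membrane sensors *SLN1* (YIL147C), *SHO1* (YER118C), *HKR1* (YDR420W) and *MSB2* (YGR014W), the kinases *SSK22* (YCR073C), *PBS2* (YJL128C) and *HOG1* (YLR113W), and the target genes *GPD1* (YDL022W), *GPP2* (YER062C) and *STL1* (YDR536W). *SSK22* and *HKR1* were included because their counts had been seen to rise with DNA content, and every library of a test entered that relation, so their levels and slopes are given as descriptions, with no test.

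Cells were made polyploid by 2 routes, all in rich glucose medium (YPD), with 3 replicate cultures and 72 libraries in all. In the *mad1Δ bub2Δ* test at 30 °C, cells lacking the spindle checkpoint genes *MAD1* and *BUB2* (*mad1::URA3 bub2::HIS3*, MATa) were kept in nocodazole and became polyploid, wild type cells (MATa) in nocodazole were the arrested control, and *mad1Δ bub2Δ* cells in DMSO were the cycling control. In the *cdc24-1 swe1Δ* test, *cdc24-1 swe1::kanMX* cells (MATa) became polyploid at 37 °C, *cdc20-1 cdc24-1 swe1::kanMX* cells (MATα) at 37 °C were the arrested control, and *cdc24-1 swe1::kanMX* cells at 25 °C were the cycling control. RNA was taken from the polyploid and arrested cultures at 5 times, 0, 4, 8, 12 and 16 h, and from cycling ones at 0 and 16 h. Per the study's methods, genome duplication was induced at the start of the experiment, 0 h, by adding nocodazole or moving cells to 37 °C. Changes from 0 h in polyploid cells thus also span the start of the drug or the shift in temperature. The arrested controls carry the same labels of drug and temperature. Every kind of cell came from a single strain, and drug or temperature differed between cycling cells and the others, so genotype, treatment and DNA content cannot be fully told apart. Each library holds the RNA of a whole culture, so a gene at lower level per cell and fewer cells that express it cannot be told apart, and all values are relative to the rest of the RNA.

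Libraries held 1597321 to 9987276 counts, with a median of 6918124. Ribosomal RNA took up to 47.6% of the counts, in 1 library of polyploid *cdc24-1 swe1Δ* cells at 12 h. In these cells at 16 h it took 16.7% in replicate 2, and replicate 3 was the library with the fewest counts. Both enter their changes from 0 to 16 h. *BUB2* had 0 counts in every *mad1Δ bub2Δ* library, whereas *MAD1* had 121 to 349 counts there, against 190 to 1254 in the other kinds of cells. *SWE1* had 0 counts in the *swe1Δ* strains with 1 exception. The library labelled replicate 2 of the arrested *cdc20-1 cdc24-1 swe1Δ* cells at 16 h held 152 *SWE1* counts, and 6578 counts of genes that MATa cells express against 216 to 588 in the other arrested libraries of that strain, so it went against its label. For the members, changes in these arrested cells and differences from them are given with and without this doubtful library.

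The HOG pathway is the signalling route by which yeast answers a loss of water to a more concentrated medium. The histidine kinase Sln1 and the membrane proteins Sho1, Hkr1 and Msb2 sense the change in 2 branches that join at the kinase Pbs2, which activates the MAP kinase Hog1. Active Hog1 slows glycerol loss and enters the nucleus, where stress genes for making and taking up glycerol are transcribed, and the glycerol draws water back into the cell.

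Stress response elements, read as AGGGG or CCCCT on either strand and bound by the factors Msn2 and Msn4, lie upstream of many such genes. The 300 bases from 400 to 101 bases before the start codon were read from the R64 reference for all members, and the 4 windows that held AGGGG or CCCCT are shown because 3 of them belong to the target genes and the other to *SSK22*. Capitals mark these elements and the cyclic AMP response element TGACGT, and each window is written 5′ to 3′ on the strand of the gene. The windows are *GPD1* at chrIV:411425-411724 on the plus strand, *GPP2* at chrV:280783-281082 on the minus strand, *STL1* at chrIV:1507605-1507904 on the plus strand and *SSK22* at chrIII:246684-246983 on the minus strand.
GPD1: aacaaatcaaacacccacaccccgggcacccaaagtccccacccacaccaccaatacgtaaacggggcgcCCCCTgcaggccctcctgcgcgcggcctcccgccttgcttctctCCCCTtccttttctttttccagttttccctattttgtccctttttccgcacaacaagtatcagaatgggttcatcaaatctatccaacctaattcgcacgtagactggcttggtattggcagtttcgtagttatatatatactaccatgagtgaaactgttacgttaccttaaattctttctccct
GPP2: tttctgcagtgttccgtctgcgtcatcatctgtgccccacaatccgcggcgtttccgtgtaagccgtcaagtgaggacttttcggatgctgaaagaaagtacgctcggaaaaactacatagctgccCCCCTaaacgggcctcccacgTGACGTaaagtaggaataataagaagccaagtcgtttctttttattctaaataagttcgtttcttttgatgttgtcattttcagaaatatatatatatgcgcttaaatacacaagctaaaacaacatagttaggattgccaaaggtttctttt
STL1: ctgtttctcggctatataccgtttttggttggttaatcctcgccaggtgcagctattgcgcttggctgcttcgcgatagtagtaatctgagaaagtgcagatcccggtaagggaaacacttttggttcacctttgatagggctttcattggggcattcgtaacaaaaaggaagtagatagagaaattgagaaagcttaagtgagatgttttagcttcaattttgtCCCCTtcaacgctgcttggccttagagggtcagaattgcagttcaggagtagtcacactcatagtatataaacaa
SSK22: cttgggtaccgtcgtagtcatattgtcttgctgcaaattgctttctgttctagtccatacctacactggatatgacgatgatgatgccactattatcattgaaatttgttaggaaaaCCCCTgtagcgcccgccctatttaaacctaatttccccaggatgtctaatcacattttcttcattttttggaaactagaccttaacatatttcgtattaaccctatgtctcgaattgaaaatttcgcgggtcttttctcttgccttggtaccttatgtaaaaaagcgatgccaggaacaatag
The window of *GPD1* held 2 such elements, whose first bases lay 330 and 286 bases before the start codon. Those of *GPP2*, *STL1* and *SSK22* held 1 each, at 274, 175 and 283 bases, and *GPP2* also held TGACGT at 253 bases. The windows of the other 6 members held neither. Of 6001 such windows in the genome, 23.5% held at least 1 AGGGG on either strand, 4.12% held 2 or more, and 8.65% held TGACGT, so a single element is common. In the *SSK22* window 21 bases overlapped another coding sequence.

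Per unit of length, the members covered a wide range at 0 h. Over the 6 kinds of cells, *HOG1* had mean levels of 133 to 190 TPM and *GPD1* of 102 to 302 TPM. *SSK22* lay at 8.59 to 12.96 TPM, and *STL1*, the glycerol transporter, was nearly silent at 0.0969 to 0.949 TPM. The remaining genes lay between, from 12.8 TPM for the lowest *HKR1* mean to 109 TPM for the highest *GPP2* mean.

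Between 0 and 16 h, the target genes *GPP2* and *STL1* rose more in arrested than in polyploid cells. In the *mad1Δ bub2Δ* test the arrested wild type cells began from lower levels of both. In the *cdc24-1 swe1Δ* test the calls of this difference were lost without any 1 arrested replicate, by limma and at 12 h. *GPP2* and *STL1* rose strongly in the arrested strains, *GPD1* fell in all 6 kinds of cells, and *SSK22*, which was not tested, was higher at 16 h in every polyploid and arrested library. Changes are given on the log2 scale with their standard error, and p-values come from edgeR's quasi-likelihood test with Benjamini-Hochberg adjustment over all genes tested, with 0.05 as the threshold. Of the 8 members other than *SSK22* and *HKR1*, 2 rose and 5 fell in arrested wild type cells, where 57.7% of all genes changed, 31.7% upwards and 26.1% downwards. In arrested *cdc20-1 cdc24-1 swe1Δ* cells 2 rose and 4 fell, where 51.9% of all genes changed, 28% upwards and 23.9% downwards, and without the doubtful library 3 rose and 5 fell. Among polyploid cells 1 rose and 2 fell with *mad1Δ bub2Δ*, where 44.8% of all genes changed, 23.2% upwards and 21.7% downwards. With *cdc24-1 swe1Δ* 2 rose and 3 fell, where 49.3% of all genes changed, 26% upwards and 23.4% downwards. Cycling *mad1Δ bub2Δ* cells had 3 members that changed, all of them lower, where 37.1% of all genes changed and 17.2% fell. Cycling *cdc24-1 swe1Δ* cells had 1 that fell, where 13.6% of all genes changed and 6.77% fell. The median change over the 8 members in polyploid cells was 0.30 with *mad1Δ bub2Δ* and 0.08 with *cdc24-1 swe1Δ*, beside 0.03 and 0.07 over all genes. In arrested cells it was -0.50 for wild type and -0.39 for *cdc20-1 cdc24-1 swe1Δ*, beside 0.09 and 0.07. On the deposited log2(TPM + 1) scale, without further scaling, the median of all genes itself moved by 0.84 in arrested wild type cells. It moved by 0.62 in arrested *cdc20-1 cdc24-1 swe1Δ* cells. There *SLN1* (0.18), *SHO1* (0.04), *MSB2* (0.08), *PBS2* (0.62) and *HOG1* (0.38) had positive values in the former and *HOG1* (0.41) in the latter. All of these lay at or below that median shift. Tested by limma, *PBS2* (adjusted p = 0.00638) and *HOG1* (0.0262) passed as rises in the former, and *HOG1* in the latter (0.0313). *PBS2* also passed as a rise in the latter (0.81, adjusted p = 0.00451), above the shift there. No longer called were the falls of *SLN1*, *SHO1* and *MSB2* in the former and of *SLN1*, *MSB2* and *GPD1* in the latter. In polyploid cells that median moved by 0.42 with *mad1Δ bub2Δ* and 0.655 with *cdc24-1 swe1Δ*. By limma on this scale, *SLN1* (-0.02, adjusted p = 0.95) and *GPD1* (-0.54, 0.0666) were no longer called in the former. *SHO1* (-0.265, adjusted p = 0.276) and *HOG1* (-0.333, 0.0727) were no longer called in the latter. Rises of *SHO1*, *MSB2*, *PBS2* and *GPP2* newly passed in the former and that of *GPP2* in the latter. The falls given for arrested and polyploid cells are relative to the other genes.

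**Figure D1:**
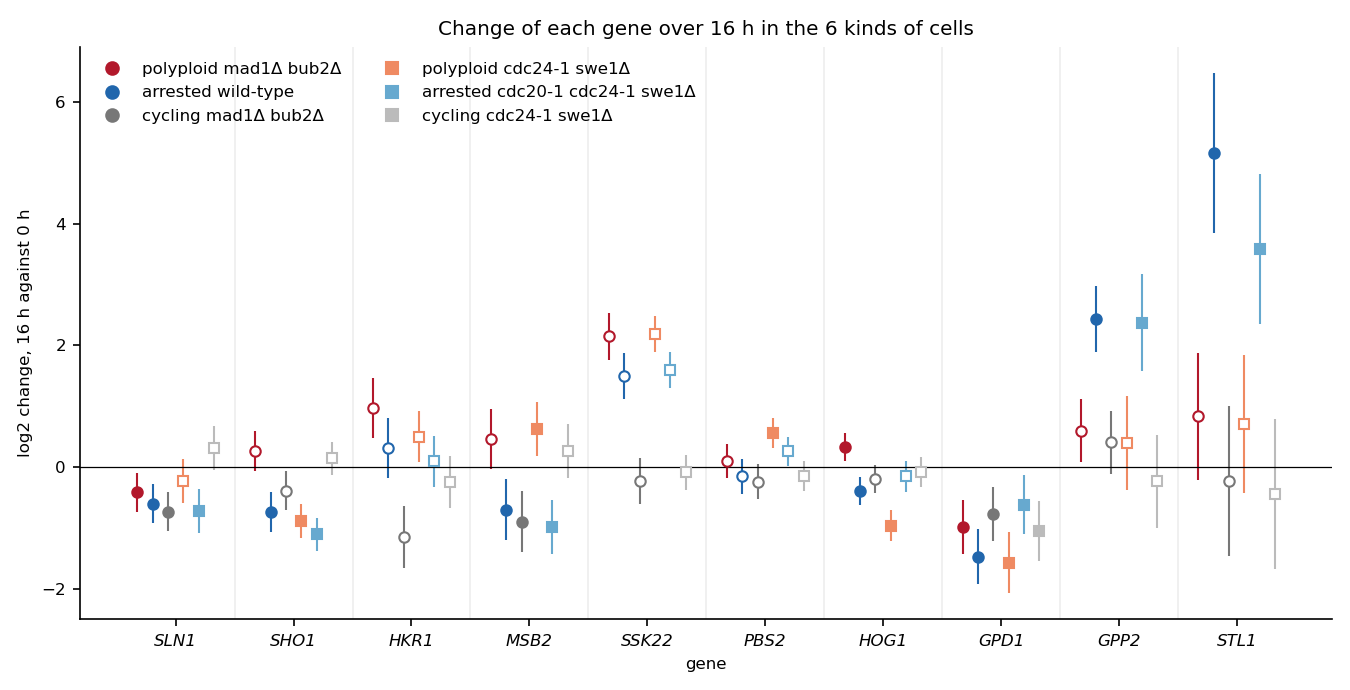
Log2 change from 0 to 16 h (vertical axis) of each of the 10 members (horizontal axis) in the 6 kinds of cells, with bars for the 95% interval, filled points for changes that passed the edgeR test and open points for those that did not pass or, for *SSK22* and *HKR1*, were not tested. *GPP2* and *STL1* stand high in both arrested strains and *SSK22* in both arrested and both polyploid ones.

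Tested over all 5 time points at once, which detects any departure from a flat course, 6 of 8 members changed in each kind of polyploid cell. The background was 56.8% of all genes with *mad1Δ bub2Δ* and 68.1% with *cdc24-1 swe1Δ*. In arrested wild type cells 6 of 8 changed (70.3% of all genes) and in arrested *cdc20-1 cdc24-1 swe1Δ* cells 7 of 8 (70.1%). *PBS2* did not pass in 3 of these 4 tests (adjusted p = 0.137 in polyploid *mad1Δ bub2Δ*, 0.0840 in arrested wild type and 0.0714 in arrested *cdc20-1 cdc24-1 swe1Δ* cells). With the cultures entered as a replicate block, *HOG1* was no longer called in polyploid *mad1Δ bub2Δ* cells (adjusted p = 0.0598), and *GPP2* was (0.0498). In arrested wild type cells *PBS2* was then called as well (adjusted p = 0.0326). Without the doubtful library *PBS2* was also called in arrested *cdc20-1 cdc24-1 swe1Δ* cells (adjusted p = 0.0428).

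*SLN1*, the histidine kinase that keeps its branch silent while turgor is normal, was lower at 16 h than at 0 h on average in 5 of the 6 kinds of cells. Arrested wild type libraries went from 257, 274 and 222 CPM (counts scaled to library size) in the 3 replicates at 0 h to 192, 151 and 150.2 CPM at 16 h (-0.60 ± 0.16, adjusted p = 0.00225). Polyploid *mad1Δ bub2Δ* cells went from 235, 221 and 227 to 164, 171 and 176 CPM (-0.41 ± 0.16, adjusted p = 0.0391). Every 16 h library lay below every 0 h library in both. The polyploid call was lost when any 1 of the 3 polyploid replicates was left out (adjusted p = 0.0938, 0.08 and 0.062), and the arrested one without replicate 2 (adjusted p = 0.0553). *SLN1* also fell in arrested *cdc20-1 cdc24-1 swe1Δ* cells (-0.72, adjusted p = 0.00149, and -0.80 without the library that went against its label) and in cycling *mad1Δ bub2Δ* cells (-0.74, adjusted p = 0.00118). The libraries overlapped in polyploid *cdc24-1 swe1Δ* cells, at 226, 169 and 163 CPM and then 190.4, 141 and 145 CPM (-0.23, adjusted p = 0.308). Cycling *cdc24-1 swe1Δ* cells went the other way, from 189.5, 173 and 184 to 209.6, 279 and 198 CPM, with all 16 h libraries above all 0 h libraries, and did not pass the test (0.32 ± 0.18, adjusted p = 0.269).

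*SHO1*, the membrane protein that anchors the other branch, separated the routes to polyploidy. It fell in polyploid *cdc24-1 swe1Δ* cells, from 109.5, 94.9 and 105 CPM to 52.0, 63.8 and 52.5 CPM (-0.89 ± 0.14, adjusted p = 8.73e-06). With polyploid *mad1Δ bub2Δ* it stood at 134, 121 and 103 CPM at 0 h and 139, 165 and 124 CPM at 16 h (0.27 ± 0.17, adjusted p = 0.195). The libraries overlapped in the latter and were fully separate in the former. The difference between the polyploid strains was 1.14 ± 0.22 (adjusted p = 0.000127). Arrested cells of both kinds fell as well, from 134, 146 and 121 to 89.2, 81.2 and 69.2 CPM in wild type (-0.74, adjusted p = 0.000389) and from 151, 139.8 and 131 to 63.1, 66.0 and 61.6 CPM in *cdc20-1 cdc24-1 swe1Δ* (-1.10, adjusted p = 1.54e-07, and -1.14 without the doubtful library). Of the 4 kinds of cells in nocodazole or at 37 °C, *SHO1* thus fell in 3.

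*MSB2* and *HKR1* encode related mucin-like membrane proteins of the *SHO1* branch. *MSB2* moved in opposite directions in arrested and polyploid cells of the *cdc24-1 swe1Δ* test. In the arrested cells it went from 360.0, 310.5 and 283 to 144, 196 and 128 CPM (-0.99, adjusted p = 0.000554, and -1.19 without the doubtful library), after 118, 84.7 and 104 CPM at 4 h. Polyploid cells of that test went from 149, 96.9 and 121 to 158, 225 and 187 CPM (0.63 ± 0.23, adjusted p = 0.0222). The polyploid rise was small enough that the call was lost without replicate 2 (0.37, adjusted p = 0.312) or replicate 3 (adjusted p = 0.0891). At 0 h *MSB2* was already higher in the arrested strain than in the polyploid one by 1.37 ± 0.23 (adjusted p = 7.16e-05), and by 16 h the order had turned, apart from 1 arrested library at 196 CPM, the doubtful one, that lay above 2 of the polyploid ones. In the *mad1Δ bub2Δ* test *MSB2* fell in arrested wild type cells, from 286, 318 and 302 to 216, 174 and 165 CPM (-0.70, adjusted p = 0.0203), a call lost without replicate 2 (adjusted p = 0.121) or 3 (0.108). Polyploid *mad1Δ bub2Δ* cells held 221, 202 and 285 CPM at 0 h and 313, 327 and 329 CPM at 16 h (0.46 ± 0.25, adjusted p = 0.142). All 16 h libraries lay above all 0 h libraries there, although the test was not passed.

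*HKR1* had its highest levels in polyploid cells. In *mad1Δ bub2Δ* cells it went from 117, 133 and 182 CPM at 0 h through 211, 316 and 359.7 CPM at 12 h to 245, 279.8 and 319.7 CPM at 16 h, a 1.96-fold difference between 0 and 16 h (log2 0.97 ± 0.25). With polyploid *cdc24-1 swe1Δ* it peaked earlier, at 344, 266 and 255 CPM at 12 h from 111, 104 and 96.3 CPM at 0 h, and then stood at 158, 159 and 126 CPM at 16 h (1.42-fold over 0 h, log2 0.50 ± 0.22). No 16 h library overlapped a 0 h library in either kind. Arrested cells overlapped, with 118, 140.5 and 128 CPM and then 186, 137 and 156 CPM in wild type (0.31 ± 0.25), and with 189, 133 and 126 CPM and then 183, 178 and 103 CPM in *cdc20-1 cdc24-1 swe1Δ* (0.10, and -0.02 without the doubtful library). Cycling *mad1Δ bub2Δ* cells were lower at 16 h, with 142, 176 and 199 and then 68.4, 55.8 and 111 CPM (-1.15 ± 0.26).

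*SSK22* encodes a MAP kinase kinase kinase that activates Pbs2 in the *SLN1* branch, and it had the largest increase of any member in polyploid cells. In *mad1Δ bub2Δ* cells it went from 64.01, 85.2 and 76.5 CPM at 0 h to 308, 327 and 359 CPM at 16 h, which is 4.43-fold (log2 2.15 ± 0.19). In *cdc24-1 swe1Δ* cells it went from 71.9, 56.6 and 77.0 to 317, 333 and 289 CPM, which is 4.55-fold (log2 2.19 ± 0.15). The courses differed, since the means at 4, 8 and 12 h were 112, 177 and 345 CPM in the former and 202, 257 and 293 CPM in the latter.

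Arrested cells, whose DNA content changed little, also had higher *SSK22* at 16 h. In wild type it went from 47.6, 58.2 and 64.7 to 149, 165 and 169 CPM (2.83-fold, log2 1.50 ± 0.19). In *cdc20-1 cdc24-1 swe1Δ* cells it went from 57.9, 54.7 and 51.2 to 145, 171 and 167 CPM (3.03-fold, log2 1.60 ± 0.15, and 1.54 without the doubtful library). No 16 h library overlapped a 0 h library in either. At 16 h every polyploid library lay above every arrested one. The excess of the polyploid over the arrested change was 0.65 ± 0.27 for *mad1Δ bub2Δ* and 0.59 ± 0.21 for *cdc24-1 swe1Δ* (0.64 without the doubtful library). Cycling cells overlapped, with 49.7, 69.2 and 71.8 CPM and then 58.4, 49.2 and 57.5 CPM in *mad1Δ bub2Δ* (-0.23) and a log2 change of -0.09 in *cdc24-1 swe1Δ*.

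*SSK2*, the paralog of *SSK22* with the same role, did not follow it. In polyploid *mad1Δ bub2Δ* cells *SSK2* stood at 151, 163 and 148 CPM at 0 h and at 144, 139 and 154 CPM at 16 h (-0.07, adjusted p = 0.659). The polyploid *cdc24-1 swe1Δ* libraries stood at 112, 102 and 93.2 and then at 125, 136 and 118 CPM (0.29, adjusted p = 0.056). It fell in arrested *cdc20-1 cdc24-1 swe1Δ* cells (-0.46, adjusted p = 0.00307, and -0.49 without the doubtful library). By blastn, 43.2% of the *SSK22* coding sequence aligned to *SSK2*, with 70.1% identity over 876 bases in the longest alignment, and the rest had no such match.

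**Figure D2:**
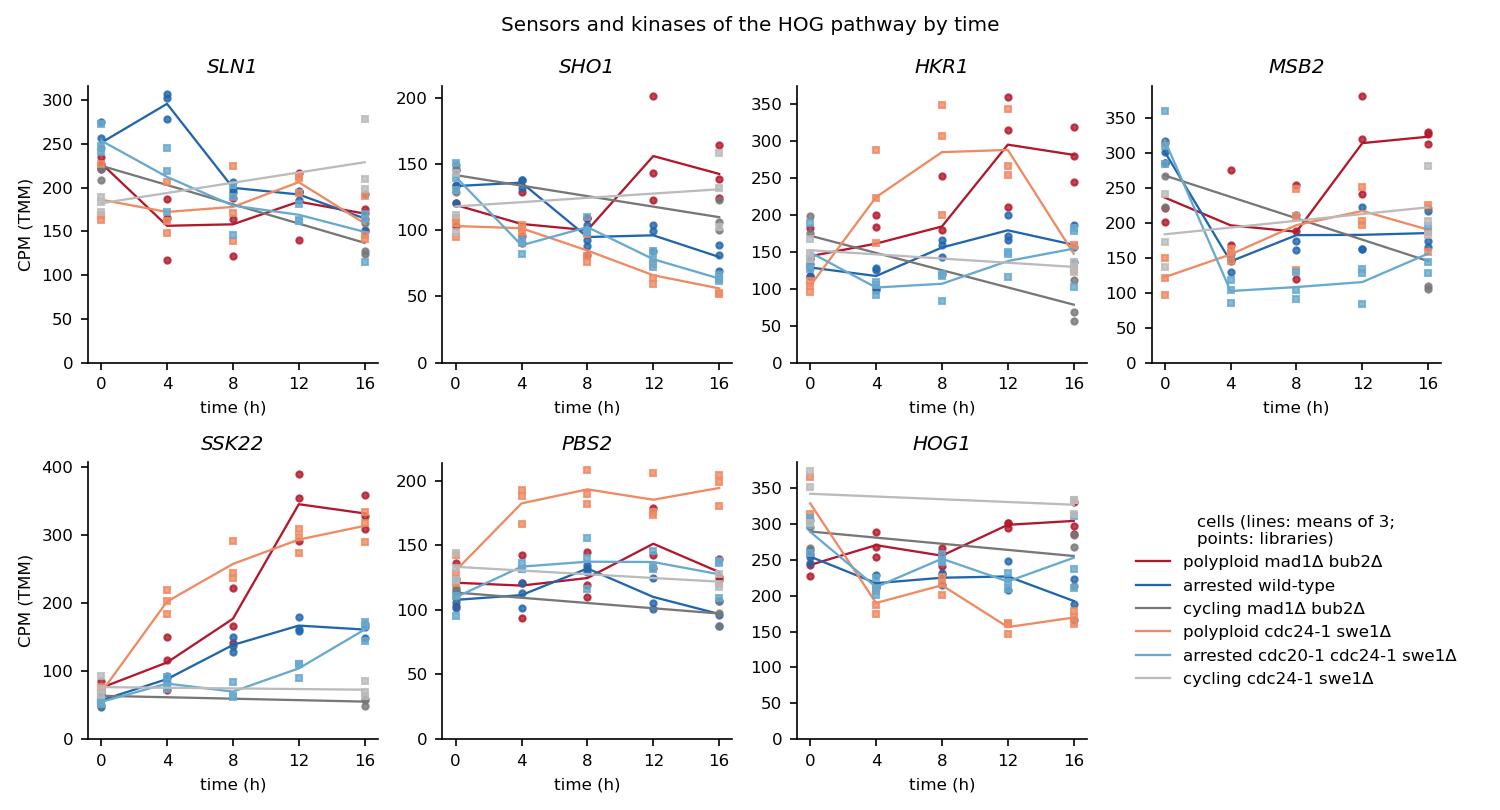
Level of the sensors and kinases (CPM, vertical axis) against time (h, horizontal axis), with a point per library and a line through the mean of each of the 6 kinds of cells. *SSK22* climbs in polyploid and arrested cells and stays flat in cycling ones, *SHO1* parts the polyploid strains, and *PBS2* stands highest in polyploid *cdc24-1 swe1Δ* cells.

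*PBS2*, the kinase on which both branches meet, was the steadiest member. It rose in polyploid *cdc24-1 swe1Δ* cells, from 128, 143 and 120.4 to 180.1, 204 and 199 CPM (0.56 ± 0.12, adjusted p = 0.000405). In polyploid *mad1Δ bub2Δ* cells it stood at 103, 124 and 136 and then at 125, 123 and 139.5 CPM (0.10, adjusted p = 0.60), and in arrested wild type cells at 106, 101 and 116 and then at 107, 87.8 and 95.8 CPM (-0.15, adjusted p = 0.403). The groups overlapped in both of these. Arrested *cdc20-1 cdc24-1 swe1Δ* cells gave 0.26 (adjusted p = 0.0836), which became 0.36 and passed the test (adjusted p = 0.0244) without the doubtful library.

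*HOG1*, the MAP kinase of the pathway, moved in opposite directions in the polyploid strains. It rose in *mad1Δ bub2Δ* cells, from 228, 243 and 258 to 297, 330.0 and 286 CPM (0.33 ± 0.12, adjusted p = 0.0204), a call lost without polyploid replicate 1 (adjusted p = 0.116) or 2 (0.193). It fell in *cdc24-1 swe1Δ* cells, from 313, 308 and 365 to 159.8, 171 and 178 CPM (-0.96 ± 0.13, adjusted p = 7.65e-07), most of which was reached by 4 h at 188, 175 and 207 CPM. The groups were separate in both strains, and the difference of 1.28 ± 0.16 between them passed the test (adjusted p = 4.17e-08). *HOG1* also fell in arrested wild type cells, from 254, 245 and 264 to 166, 223 and 189 CPM (-0.40 ± 0.12, adjusted p = 0.00459), a call lost without replicate 1 (adjusted p = 0.0783). In arrested *cdc20-1 cdc24-1 swe1Δ* cells it stood at 308, 260.1 and 299 and then at 210.1, 311 and 238 CPM (-0.15, adjusted p = 0.327), and without the doubtful library, the one at 311 CPM, the fall passed the test (-0.34, adjusted p = 0.026). On log2(TPM + 1) by limma, *HOG1* instead passed as a rise in both arrested strains, below the median shifts of all genes. The values were 0.38 in wild type (adjusted p = 0.0262) and 0.41 in *cdc20-1 cdc24-1 swe1Δ* cells (0.0313).

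The enzymes that make glycerol did not move together. *GPD1*, whose product makes glycerol 3-phosphate from a glycolytic intermediate and is the classic osmotic target, fell in each of the 6 comparisons between 0 and 16 h. In polyploid *cdc24-1 swe1Δ* cells it fell from 354, 542 and 296 to 124, 112 and 171 CPM (-1.57 ± 0.26, adjusted p = 1.05e-05), and in polyploid *mad1Δ bub2Δ* cells from 146, 206 and 279 to 118, 92.2 and 106 CPM (-0.99 ± 0.23, adjusted p = 0.000688). Arrested wild type cells fell from 283, 255 and 255 to 91.2, 107 and 86.4 CPM (-1.48, adjusted p = 2.33e-06). No 16 h library of these reached the lowest 0 h library of its kind. Arrested *cdc20-1 cdc24-1 swe1Δ* cells overlapped, at 487, 349 and 505 and then 262, 354 and 230.0 CPM (-0.62, adjusted p = 0.0364), with the call lost without replicate 1 (adjusted p = 0.229) or 3 (0.354) and the value at -0.82 without the doubtful library (adjusted p = 0.0133). The doubtful library was the one at 354 CPM, and the other 16 h libraries lay below all 0 h libraries. Cycling cells fell as well, by a log2 change of -0.76 in *mad1Δ bub2Δ* (adjusted p = 0.00969, lost without replicate 3 at -0.29, adjusted p = 0.344) and -1.05 in *cdc24-1 swe1Δ* (adjusted p = 0.00597, lost without replicate 2 at -0.75, adjusted p = 0.176). A lower *GPD1* level at 16 h was thus also seen in cells that neither arrested nor gained DNA.

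*GPP2*, the phosphatase that completes glycerol synthesis, rose early and strongly in arrested cells. In wild type it went from 26.8, 29.1 and 31.2 CPM at 0 h to 260.2, 284 and 263 CPM at 4 h, peaked at 336, 469 and 377 CPM at 8 h, 13.6-fold over 0 h by the means, and came down to 170.2, 153 and 147 CPM at 16 h (5.41-fold over 0 h, log2 2.44 ± 0.28, adjusted p = 9.33e-09). In arrested *cdc20-1 cdc24-1 swe1Δ* cells it went from 111, 53.9 and 99.8 CPM through 669, 729 and 741 CPM at 8 h to 552, 353 and 428 CPM at 16 h (5.18-fold, log2 2.37 ± 0.41, adjusted p = 1.6e-05, and 2.51 without the doubtful library). All libraries from 4 h on lay above all 0 h libraries in both strains.

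The change of *GPP2* to 16 h was smaller in polyploid cells. In *cdc24-1 swe1Δ* cells it went from 79.3, 139 and 56.1 CPM through 448, 451 and 204 CPM at 8 h back to 141, 104 and 119.7 CPM at 16 h (0.40, adjusted p = 0.414), and its course over the 5 time points passed the test (adjusted p = 0.000149). In *mad1Δ bub2Δ* cells it stood at 49.6, 57.9 and 92.2 CPM at 0 h, 98.8, 105 and 91.4 CPM at 4 h and 119.9, 78.8 and 103 CPM at 16 h. There the change from 0 to 16 h was 0.60 ± 0.26 (adjusted p = 0.0616). It passed with the cultures as a replicate block (0.62, adjusted p = 0.0103), with at least 10 counts in every library (0.64, adjusted p = 0.0457), on log2(TPM + 1) by limma (1.04, adjusted p = 0.00361) and without replicate 3 (0.90, adjusted p = 0.0217). Polyploid *cdc24-1 swe1Δ* cells passed by limma too (adjusted p = 0.0225), and at 12 h in place of 16 h (1.36, adjusted p = 0.00576). Cycling *mad1Δ bub2Δ* cells had 26.1, 30.0 and 76.5 and then 48.4, 56.7 and 72.9 CPM, a log2 change of 0.41 (adjusted p = 0.234) that passed with the block (0.54, adjusted p = 0.0319) and without replicate 3 (0.89, adjusted p = 0.00576). The polyploid change lay below the arrested one by a log2 difference of -1.84 ± 0.38 for *mad1Δ bub2Δ* against wild type (adjusted p = 0.000633) and -1.98 ± 0.56 for the *cdc24-1 swe1Δ* test (adjusted p = 0.0176). The latter call was lost without polyploid replicate 2 (-1.41, adjusted p = 0.188) and without arrested replicate 1, 2 or 3 (adjusted p = 0.0814, 0.0596 and 0.0648), by limma (adjusted p = 0.0593) and at 12 h (0.0584), and it was kept without the doubtful library (-2.12, adjusted p = 0.0139). *GPP1*, the other isoform, aligned to 99.2% of *GPP2* at 83.3% identity, and *GPD2* to 91.7% of *GPD1* at 74.6%, so the estimated split of reads within each pair adds uncertainty to these values.

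*STL1*, the importer that brings external glycerol back into the cell, was the rarest transcript and the one with the largest change. In arrested wild type cells the 3 libraries held 0, 2 and 3 counts at 0 h and 74, 43 and 54 counts at 16 h. Pooled over replicates and corrected for depth, the 16 h level was 50.8 times the 0 h level, with an exact 95% interval of 21.4 to 158 that covers counting error only. The fitted change was 5.16 ± 0.67 (adjusted p = 1.03e-07). In arrested *cdc20-1 cdc24-1 swe1Δ* cells counts went from 6, 6 and 6 to 51, 129 and 39, a ratio of 15.8 (9.77 to 27.2), and the fitted change was 3.59 ± 0.63 (adjusted p = 2.11e-05). The doubtful library held the 129 counts, and without it the ratio was 10.7 (6.42 to 18.9) and the fitted change 3.02 (adjusted p = 0.000294).

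From 0 to 16 h, polyploid cells varied too much from library to library for a call on *STL1*. Over the 5 time points *STL1* was called in *mad1Δ bub2Δ* cells (adjusted p = 0.0120), a call lost without replicate 1 (0.134) or 3 (0.208). It was not called in *cdc24-1 swe1Δ* cells (adjusted p = 0.107), except without replicate 3 (0.0343). In *mad1Δ bub2Δ* cells counts went from 12, 15 and 7 to 26, 3 and 36 (0.83 ± 0.53, adjusted p = 0.209), and without replicate 2, which held the 3 counts, the change passed the test (1.68, adjusted p = 0.0171). In *cdc24-1 swe1Δ* cells they went from 11, 25 and 12 to 48, 18 and 0 (0.70, adjusted p = 0.321), and the library at 0 allows a mean of up to 3 counts. The pooled ratios were 2.19 (1.42 to 3.41) and 2.72 (1.85 to 4.03), and those of cycling cells 0.813 (0.413 to 1.57) and 0.816 (0.473 to 1.40). The polyploid change lay below the arrested one by -4.33 ± 0.88 for *mad1Δ bub2Δ* against wild type (adjusted p = 0.000599) and by -2.88 ± 0.85 for the *cdc24-1 swe1Δ* test (adjusted p = 0.0235). Without the doubtful library the latter was -2.33 and not passed (adjusted p = 0.0724), and it was also lost without polyploid replicate 2 (-2.45, adjusted p = 0.161) or arrested replicate 1, 2 or 3 (adjusted p = 0.0599, 0.154 and 0.0854). It was further lost by limma (adjusted p = 0.066), at 12 h (0.0791) and with only the libraries compared (0.0933).

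**Figure D3:**
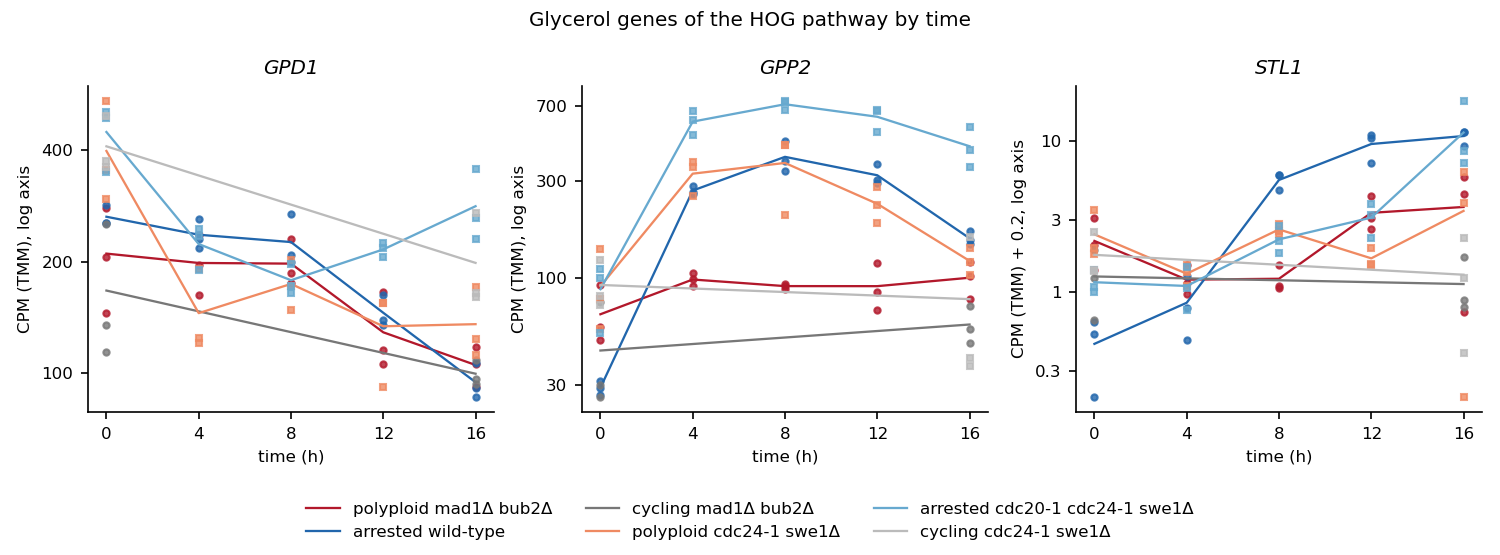
Level of *GPD1*, *GPP2* and *STL1* (CPM on log axes, with 0.2 added for *STL1*) against time (h), with a point per library and a line through the mean of each of the 6 kinds of cells. *GPP2* and *STL1* stand highest in arrested cells at 16 h, while *GPD1* declines in all kinds.

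The direct comparison of polyploid with arrested change thus singled out 5 of the 8 tested members in the *mad1Δ bub2Δ* test, where 23.9% of all genes differed, and 4 of 8 in the *cdc24-1 swe1Δ* test, where 11.9% did. *SHO1* (1.00 ± 0.24, adjusted p = 0.00233), *MSB2* (1.16 ± 0.36, adjusted p = 0.0194) and *HOG1* (0.73 ± 0.17, adjusted p = 0.00166) changed more positively in polyploid *mad1Δ bub2Δ* than in arrested wild type cells. The *MSB2* call was lost without arrested replicate 2 (adjusted p = 0.0886) or 3 (0.0758). On log2(TPM + 1) by limma all 3 calls were lost, at 0.62 for *SHO1* (adjusted p = 0.142), 0.77 for *MSB2* (0.198) and 0.35 for *HOG1* (0.224), where the median difference of all genes was itself -0.40. *MSB2* differed the same way in the other test (1.62 ± 0.32, adjusted p = 0.00133, and 1.82 without the doubtful library), whereas *HOG1* differed the opposite way there (-0.81 ± 0.18, adjusted p = 0.00319, and -0.63 without it, adjusted p = 0.0101). The *HOG1* call was lost by limma (adjusted p = 0.0593) and with only the libraries compared (0.0626). Between the polyploid strains 2 of 8 members differed, *SHO1* and *HOG1*, where 14% of all genes did. Between the arrested strains 0 of 8 members differed by edgeR, where 24.4% of all genes did. At an unadjusted p under 0.05, edgeR gave 2 members (*PBS2* and *GPD1*), DESeq2 2 and limma 0, and none passed after adjustment with any of these tools.

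At 0 h the strains of a test already differed in some members. *GPP2* was lower in wild type than in *mad1Δ bub2Δ* cells by a log2 difference of -1.21 ± 0.27 (adjusted p = 0.00433) and *STL1* by -2.76 ± 0.74 (adjusted p = 0.0159), which makes 2 of 8 where 9.78% of all genes differed. The *STL1* call was lost without any 1 of the wild type replicates, and that of *GPP2* without wild type replicate 1 (adjusted p = 0.0648). In the *cdc24-1 swe1Δ* test *MSB2* and *SHO1* were higher in the arrested strain, by 1.37 and 0.43 ± 0.14 (adjusted p = 0.0412), again 2 of 8, where 9.26% of all genes differed. The call of *SHO1* was lost whenever any 1 replicate was left out. The changes of these genes were thus measured from unequal starting levels.

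Set against DNA content, *SSK22* and *HKR1* had the steepest positive slopes of the members in both tests. Mean DNA content, in kAU from the arbitrary units (AU) that the labels give for each library, went from 102 to 442 with polyploid *mad1Δ bub2Δ* and from 108 to 264 with polyploid *cdc24-1 swe1Δ* cells. It went from 81.6 to 97.9 in arrested wild type and from 82.1 to 85.1 in arrested *cdc20-1 cdc24-1 swe1Δ* cells. Per 100000 AU the log2 slope of *SSK22* was 0.47 ± 0.06 (SE) with *mad1Δ bub2Δ*, rank 27 among 6025 genes, and 0.95 ± 0.10 with *cdc24-1 swe1Δ*, rank 72 among 6028. That of *HKR1* was 0.27 ± 0.05, rank 154, and 0.50 ± 0.08, rank 325. At the Bonferroni threshold 1.89% and 2.75% of all genes had a positive slope in the respective test, and nothing is read from this because the slope chose these genes. Within polyploid cells alone the slopes were 0.65 and 1.05 for *SSK22* and 0.31 and 0.62 for *HKR1*. The other members had smaller or negative slopes, from -0.23 for *GPP2* to 0.14 for *MSB2* in the *mad1Δ bub2Δ* test and from -0.54 for *GPD1* to 0.33 for *PBS2* in the other. The slopes of *GPP2* and *STL1* changed sign with the cells that entered. For *GPP2* they were -0.23 and -0.18 over all cells of the respective test but 0.12 and 0.59 in polyploid cells alone, and for *STL1* -0.14 and -0.22 but 0.28 and 0.23.

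Fold for fold, *SSK22* did not track DNA content in a fixed way. In polyploid *mad1Δ bub2Δ* cells its mean level was 4.41 times that at 0 h when DNA content was 4.34 times that at 0 h. For polyploid *cdc24-1 swe1Δ* the level was 4.57 times for 2.44 times the DNA. Arrested wild type cells reached 2.83 times the level with 1.20 times the DNA, and arrested *cdc20-1 cdc24-1 swe1Δ* cells 2.94 times with 1.04 times. For *HKR1* the ratios of level were 1.95 and 1.42 in the polyploid strains at 16 h, and 2.77 in *cdc24-1 swe1Δ* at 12 h. DNA content and time in the treatment rose together in polyploid cells, and their parts were not separated here.

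**Figure D4:**
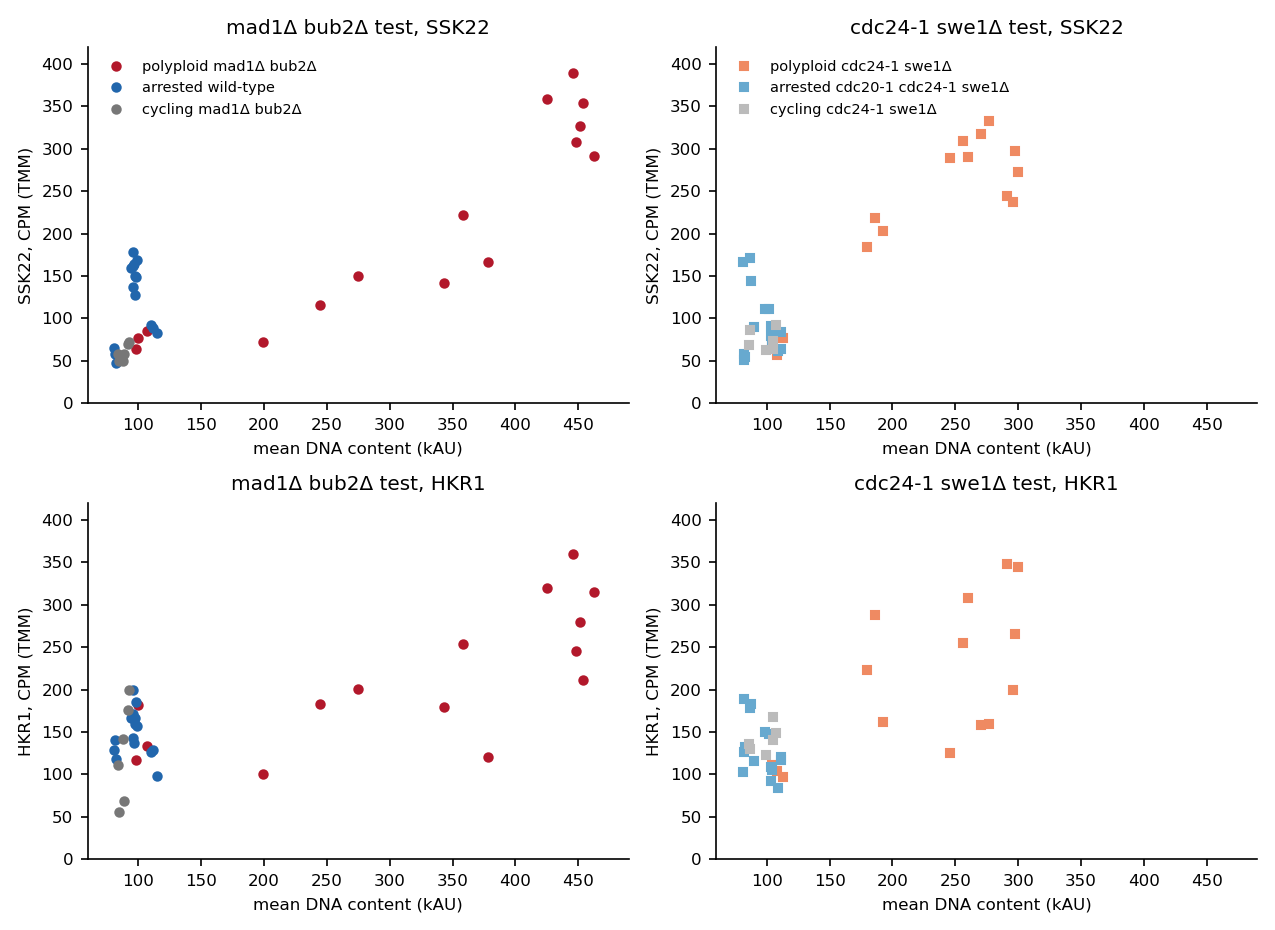
Level of *SSK22* and *HKR1* (CPM, vertical axis) against mean DNA content (kAU, horizontal axis), with a point for each library in the 6 kinds of cells. Arrested libraries form a steep column of *SSK22* levels at low DNA content, and polyploid libraries spread to 462 kAU.

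Neighbouring genes had smaller slopes, which is given as a description. *SSK22* and *HKR1* were chosen for rising with DNA content, so nothing is read from this contrast. *SSK22* lies at chrIII:242588-246583 on the minus strand, 70037 bases from the nearer end of chromosome III, between *RSA4* and *SOL2*. Of the 26 genes within 20 kb, 25 were measured, with a median slope of 0.01 with *mad1Δ bub2Δ* and 0.06 with *cdc24-1 swe1Δ* and a highest slope of 0.08 and 0.52. *HKR1* lies at chrIV:1306267-1311675 on the plus strand between *RAD30* and *ARO80*. Its 22 neighbours had median slopes of -0.03 and -0.01 and highest slopes of 0.10 and 0.21, all below that of *HKR1* itself.

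Likeness of pattern was measured by Pearson's r of mean log2 CPM over the 24 conditions, which share treatments, strains and time, and is given as a description. The genes most like *SSK22* were *PCA1*, a metal-transporting ATPase (0.97), YCR099C (0.96), *EMA35* (0.95), *YSP3* (0.93) and YNR066C (0.93), where the median over all genes was 0.04. Those most like *HKR1* were YCR101C (0.88), *EMA35* (0.86), *PCA1* (0.82), YNR066C (0.81) and *SSK22* itself (0.80), where the median was 0.01. *PCA1*, *EMA35* and YNR066C were thus near both. Among members, *SHO1* and *HOG1* had an r of 0.70 and *SSK22* and *PBS2* of 0.64, and *MSB2* and *GPP2* ran opposite ways at -0.65.

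Of the other known transcriptional targets of osmotic stress, 10 genes were examined, a list drawn up like the other lists with earlier results known. The shares of all genes that rose and fell were 31.7% and 26.1% in arrested wild type, 23.2% and 21.7% in polyploid *mad1Δ bub2Δ*, 26% and 23.4% in polyploid *cdc24-1 swe1Δ* and 28% and 23.9% in arrested *cdc20-1 cdc24-1 swe1Δ* cells. Of these targets 8 rose and 1 fell in arrested wild type cells, with a median change of 3.94. For polyploid *mad1Δ bub2Δ* 5 rose and 0 fell (median 1.26), for polyploid *cdc24-1 swe1Δ* 4 rose and 3 fell (0.50), and in arrested *cdc20-1 cdc24-1 swe1Δ* cells 4 rose and 0 fell (0.43, and 0.33 with the same counts without the doubtful library). Cycling *cdc24-1 swe1Δ* cells had 6 that fell (-1.77), where 6.77% of all genes fell. Cycling *mad1Δ bub2Δ* cells had 4 that rose and 1 that fell (0.11), where 37.1% of all genes changed and 17.2% fell. *HSP12*, a small membrane-associated heat shock protein, went from 1.93, 2.13 and 1.99 to 1354, 1202 and 1371 CPM in arrested wild type (9.33 ± 0.46, adjusted p = 2.4e-16) and from 4.41, 8.88 and 8.14 to 807, 433 and 669 CPM in polyploid *mad1Δ bub2Δ* cells (6.49 ± 0.40, adjusted p = 1e-13). In the other test it began higher, at 96.1, 157 and 81.4 CPM in polyploid cells and 165, 75.3 and 122 CPM in arrested ones. It reached 500.2, 444 and 373 CPM in the former (1.96, adjusted p = 0.0168) and 912, 625 and 775 CPM in the latter (2.71, adjusted p = 0.00155, and 2.84 without the doubtful library). *GRE1*, a stress-induced hydrophilin, rose in all 4, by log2 changes of 7.24 (adjusted p = 1.08e-13) and 2.90 (3.08e-06) in arrested and polyploid cells of the *mad1Δ bub2Δ* test and 3.60 (2.01e-08, and 4.01 without the doubtful library) and 1.40 (0.00501) in those of the other. The polyploid change was below the arrested one for 8 of the 10 in the *mad1Δ bub2Δ* test, where it was so for 12.6% of all genes. It was below for 4 (7.53% of all genes) and above for 1 (4.35%) with *cdc24-1 swe1Δ*, and without the doubtful library below for 3 and above for 1. AGGGG stood upstream of 7 of these 10, at least 2 copies in 6 of them.

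Among 12 other genes of glycerol metabolism and transport, 6 rose and 5 fell in arrested wild type cells (31.7% and 26.1% of all genes), and 5 rose and 4 fell in polyploid *mad1Δ bub2Δ* cells (23.2% and 21.7%). In the *cdc24-1 swe1Δ* test 2 rose and 6 fell in polyploid cells (26% and 23.4% of all genes), and 3 rose and 4 fell in arrested ones (28% and 23.9%), with the same counts without the doubtful library. *DAK2*, a dihydroxyacetone kinase, rose in all 4, for example from 1.50, 1.14 and 1.28 to 61.8, 43.1 and 44.3 CPM in arrested wild type (5.25, adjusted p = 5.58e-08) and from 6.04, 7.47 and 3.34 to 180.1, 75.6 and 129 CPM in polyploid *cdc24-1 swe1Δ* cells (4.50, adjusted p = 4.32e-07). *GUT2*, which oxidises glycerol 3-phosphate in mitochondria, also rose in all 4, by log2 changes of 0.92 to 3.12. *GPP1*, the main glycerol phosphatase outside stress, fell from 1761, 2073 and 2247 to 602, 524 and 492 CPM in polyploid *mad1Δ bub2Δ* cells (-1.90, adjusted p = 6.04e-10) and from 1990.2, 1824 and 1965 to 542, 506 and 505 CPM in arrested wild type (-1.89, adjusted p = 2e-10). It fell in polyploid *cdc24-1 swe1Δ* cells as well (-2.12, adjusted p = 2.75e-07), and went from 929, 819 and 742 to 604, 711 and 544 CPM in arrested *cdc20-1 cdc24-1 swe1Δ* cells (-0.38, adjusted p = 0.211, and -0.50 without the doubtful library, adjusted p = 0.142). Of the 12 genes, 1 rose and 8 fell in cycling *mad1Δ bub2Δ* cells, where 37.1% of all genes changed and 17.2% fell. In cycling *cdc24-1 swe1Δ* cells 0 rose and 2 fell, where 13.6% changed and 6.77% fell.

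Of 15 other signalling genes of the pathway, 7 rose and 3 fell in arrested wild type cells (31.7% and 26.1% of all genes) and 5 rose and 1 fell in polyploid *mad1Δ bub2Δ* cells (23.2% and 21.7%). The *cdc24-1 swe1Δ* test had 4 that rose and 3 that fell in polyploid cells (26% and 23.4% of all genes). In arrested *cdc20-1 cdc24-1 swe1Δ* cells 5 rose and 4 fell (28% and 23.9%), or 5 and 3 without the doubtful library. Shares of the list were thus near those of all genes in polyploid *cdc24-1 swe1Δ* cells. The phosphatase genes *PTP2* and *PTP3*, whose products switch Hog1 off, rose in all 4. *PTP2* went from 75.1, 136 and 118 to 268, 303 and 320.4 CPM in polyploid *mad1Δ bub2Δ* cells (1.45 ± 0.27, adjusted p = 5.07e-05) and from 76.0, 99.4 and 88.5 to 348, 255 and 421 CPM in arrested *cdc20-1 cdc24-1 swe1Δ* cells (1.99 ± 0.19, adjusted p = 1.14e-09, and 2.16 without the doubtful library). *YPD1*, the carrier that passes phosphate on from Sln1, rose in all 4 by log2 changes of 0.85 to 1.33. *STE11*, the MAP kinase kinase kinase of the *SHO1* branch, rose in the *mad1Δ bub2Δ* test, by 1.37 in arrested wild type (adjusted p = 1.18e-08) and 1.00 in polyploid cells (adjusted p = 5e-06). Its difference in change between the tests passed for polyploid cells (1.03, adjusted p = 0.000374) and for arrested cells (1.15, adjusted p = 4.67e-05). Of 6 transcription factors, *SMP1* rose in all 4, by 0.68 to 1.87, and *MSN4* in 3. In cycling *mad1Δ bub2Δ* cells 5 of the 15 signalling genes rose and 6 fell, where 37.1% of all genes changed and 17.2% fell. In cycling *cdc24-1 swe1Δ* cells 1 rose and 0 fell, where 13.6% changed and 6.77% fell. The transcription factors had 0 calls in either kind of cycling cell.

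**Figure D5:**
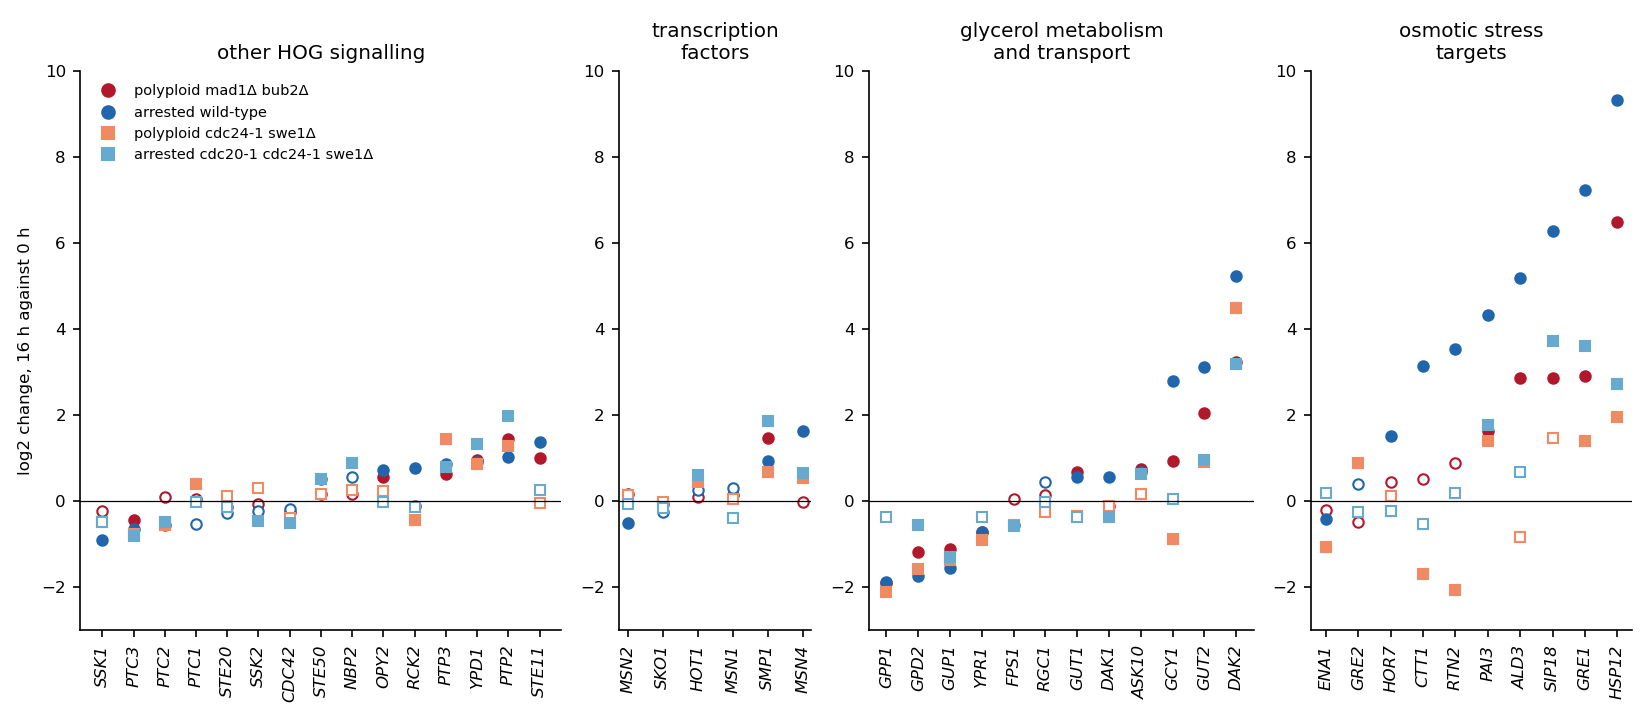
Log2 change from 0 to 16 h (vertical axis) of the other pathway genes (horizontal axis), grouped by list, in polyploid and arrested cells of both tests, with filled points for changes that passed the edgeR test. The osmotic stress targets reach their highest values in arrested wild type cells, up to 9.33 for *HSP12*.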

How the data were processed

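RNA was sequenced as poly(A)-selected libraries from 72 samples. Per the study's methods, the authors aligned reads to the S288C reference R64 with STAR and quantified them with Salmon, whose versions are not given in the sources used here. They deposited estimated counts for each gene, rounded to whole numbers, and log2 values of TPM + 1. The estimated counts were fitted as deposited with edgeR 4.0.16 in R 4.3.3 (TMM, filterByExpr, quasi-likelihood test), separately for each test with 36 libraries, and p-values were adjusted by Benjamini-Hochberg over all genes. CPM are TMM-normalised over the 72 libraries. Slopes used the DNA content in the labels. The log2 values served in limma 3.58.1 and for levels per length, and DESeq2 1.42.0 was a further alternative. The authors sampled each time course from the same cultures, which gave the replicate block. Deviations of samples from the same culture had a median correlation of 0.0266 over 126 pairs, of which 28.6% exceeded 0.1. Scripts were tested on simulated data.

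The members and gene lists were chosen with earlier results of these data known. The text names every member, and from each list up to 4 called genes with the largest change in each comparison. *SSK2*, *GPP1* and *GPD2* are also named as paralogs. Paralogs were found with blastn 2.17.0 at an E-value of 1e-10. Upstream windows and coordinates came from RefSeq, which annotates 6014 of the 6843 features. The study's methods name 3 biological replicates per condition, and p-values measure the spread between replicate libraries within conditions. The main fit had no term for culture, so samples of the same culture at different times were treated as independent. *SSK22* and *HKR1* are given with no p-value, since all libraries of a test entered the slopes by which they were chosen.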

Additional observations from a re-analysis of the deposited data

Results flagged for a closer look

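In 11 cases the change of a member from 0 to 16 h differed between kinds of cells by a direct edgeR test of the difference (Benjamini-Hochberg adjusted over all genes, 3 replicates per condition), each on the log2 scale. In the comparisons below, in the order given, 23.9%, 11.9% and 14% of all genes differed. Polyploid *mad1Δ bub2Δ* minus arrested wild type cells gave 1.00 for *SHO1* (adjusted p = 0.00233), 1.16 for *MSB2* (0.0194), 0.73 for *HOG1* (0.00166), -1.84 for *GPP2* (0.000633) and -4.33 for *STL1* (0.000599). Polyploid *cdc24-1 swe1Δ* minus arrested *cdc20-1 cdc24-1 swe1Δ* cells gave 1.62 for *MSB2* (adjusted p = 0.00133), -0.81 for *HOG1* (0.00319), -1.98 for *GPP2* (0.0176) and -2.88 for *STL1* (0.0235). The last rested partly on the library that went against its label and was -2.33 without it (adjusted p = 0.0724), while *MSB2*, *HOG1* and *GPP2* kept their calls without it at 1.82, -0.63 and -2.12. The *GPP2* call in this test was lost without polyploid replicate 2 or any 1 arrested replicate, by limma and at 12 h. The *HOG1* call there was lost by limma and with only the libraries compared. In the *mad1Δ bub2Δ* test the *SHO1*, *MSB2* and *HOG1* calls were lost by limma. Polyploid *mad1Δ bub2Δ* minus polyploid *cdc24-1 swe1Δ* cells gave 1.14 for *SHO1* (adjusted p = 0.000127) and 1.28 for *HOG1* (4.17e-08). *MSB2*, *GPP2* and *STL1* differed in the same direction in both tests and *HOG1* in opposite directions.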

How the results depend on the processing

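Counts here are over the 8 members, or over all 10 in arrested and cycling cells, where the fits also gave calls for *SSK22* and *HKR1*. Nothing is read from the calls of these 2 genes, which can make the counts larger than those given above. Over the 8 members alone the reported counts from 0 to 16 h were 3 in cycling *mad1Δ bub2Δ*, 7 in arrested wild type and 6 in arrested *cdc20-1 cdc24-1 swe1Δ* cells. Of the alternatives for these counts, 180 stayed within 1.5 times the count reported and 34 did not. Brackets in this paragraph give the number of all genes called, under the alternative and then as reported. With limma on log2(TPM + 1), 5 members were called in polyploid *mad1Δ bub2Δ* cells in place of 3 (2984 and 2701 genes). In cycling ones it called 7 in place of 4 (2432 and 2238 genes). The same setting called 2 in place of 5 for polyploid minus arrested change in the *mad1Δ bub2Δ* test, 1 in place of 4 in the *cdc24-1 swe1Δ* test, and 1 in place of 2 for the level at 0 h in each test. At 0 h in the *mad1Δ bub2Δ* test, genes with at least 10 counts in every library (572 and 589), or a fit of only the libraries compared (722 and 589), also gave 1. At 0 h in the *cdc24-1 swe1Δ* test, removing ribosomal RNA (572 and 558) or fitting all 72 libraries together (563 and 558) gave 1. With 12 h in place of 16 h, polyploid minus arrested change in the *cdc24-1 swe1Δ* test gave 2 (1031 and 716) and the arrested strains differed in 2 (2174 and 1498). Fitting only the libraries compared gave 2 in cycling *mad1Δ bub2Δ* cells (1049 and 2238) and 0 in cycling *cdc24-1 swe1Δ* cells in place of 1 (139 and 822). It gave 2 for polyploid minus arrested change in the latter test (489 and 716).

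The next ranges are from leaving out 1 replicate at a time, or the doubtful library, with the count reported over the same members in brackets. Change from 0 to 16 h gave 1 to 3 calls in polyploid (3) and 3 to 5 in cycling *mad1Δ bub2Δ* cells (4). Arrested wild type cells had 6 to 7 (8). There were 4 to 5 in polyploid (5) and 0 to 2 in cycling *cdc24-1 swe1Δ* cells (1), and 6 to 9 in arrested *cdc20-1 cdc24-1 swe1Δ* cells (7). Polyploid minus arrested change gave 4 to 5 (5) and 2 to 5 (4), polyploid strains 2 (2), arrested strains 0 to 1 (0), and the level at 0 h 0 to 2 (2) and 1 (2). Any change over time gave 2 to 4 in polyploid *mad1Δ bub2Δ* cells (6) and 6 to 7 in arrested wild type cells (7). It gave 5 to 6 in polyploid *cdc24-1 swe1Δ* (6) and 7 to 9 in arrested *cdc20-1 cdc24-1 swe1Δ* cells (9).

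Of single members, 1560 alternative values kept their side of the threshold with no called change turning, or were untested and stayed within 1 standard error. Of the others 33 newly passed the threshold, 65 no longer passed it, 10 untested changes of *SSK22* and *HKR1* moved by over 1 standard error and 7 turned. Uncalled values that changed sign are among the 1560, such as *HKR1* in arrested *cdc20-1 cdc24-1 swe1Δ* cells (0.0955, and -0.0203 without the doubtful library). On log2(TPM + 1) those that turned were *SLN1* (0.178), *SHO1* (0.0437), *MSB2* (0.0825), *PBS2* (0.623) and *HOG1* (0.377) in arrested wild type and *HOG1* (0.406) in arrested *cdc20-1 cdc24-1 swe1Δ* cells, and with 12 h the arrested difference of *SSK22* (0.619). *MSN2* in arrested wild type (0.236) and the polyploid difference of *GUT2* at 12 h (-0.680) turned as well. Of 210 alternative slopes on DNA content 63 moved by over 1 standard error and 17 changed sign, all of *GPP2* and *STL1*. With the cultures as a replicate block, 4 members were called in polyploid *mad1Δ bub2Δ* cells in place of 3, 5 in cycling ones in place of 4, and 9 in place of 7 over time in arrested wild type cells. Apart from the *GPP2*, *HOG1* and *PBS2* calls given above, and *HKR1* over time in arrested wild type cells, the block changed no other call of a member. Counts limit *STL1* most, with 0 to 25 at 0 h in polyploid and arrested cells.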
